A study of Mus musculus with 8 samples.

Results

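The 8 genes described here encode parts of the SUMO pathway, which attaches the small protein SUMO to other proteins. They are Sumo2 and Sumo3 (the modifiers), Sae1 and Uba2 (the activating enzyme), Pias1, Pias2 and Pias4 (ligases of the PIAS family) and Senp3 (a SUMO protease). They were chosen by name and role, as 8 of the 33435 named genes in the count table. All 8 were among the 11040 genes with enough counts to be tested. Both groups were made from C57BL/6J mice at E14.5, a day of embryonic development: hematopoietic stem and progenitor cells of the fetal liver were infected with Trim27 virus in one group and with GFP control virus in the other, and myeloid progenitors were then sorted. The series' design text calls the groups Trim27-overexpressing and empty vector control. Each group had 4 libraries of polyadenylated RNA. The sources used here do not name the promoter that drives the virus, the share of infected cells or whether libraries came from separate embryos or cultures. The p-values therefore speak only of how far these libraries scatter, and that scatter may be technical.

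SUMO is activated by an E1 enzyme made of the SAE1 and UBA2 proteins, passed to a conjugating enzyme and transferred to a lysine of the target, often with the help of an E3 ligase. PIAS proteins are such ligases and were first known as inhibitors of STAT transcription factors, which carry cytokine signals in blood cells. SENP proteases mature SUMO and remove it again, so the modification is reversible. SUMO2 and SUMO3 are nearly alike, can form chains and are commonly treated as a pair. Trim27, also called RFP, is a RING-finger protein of the tripartite motif family.

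Because SUMO2 and SUMO3 are so alike, the coding sequences of their genes are shown first, to let a reader judge whether reads of one could be counted for the other. They come from the GENCODE M21 transcripts Sumo2-207 (mouse chromosome 11, minus strand) and Sumo3-201 (chromosome 10, plus strand) and run 5′ to 3′ from the start codon to the end of the aligned stretch. Capitals mark the bases that differ between the pair or are present in Sumo2 alone.
Sumo2: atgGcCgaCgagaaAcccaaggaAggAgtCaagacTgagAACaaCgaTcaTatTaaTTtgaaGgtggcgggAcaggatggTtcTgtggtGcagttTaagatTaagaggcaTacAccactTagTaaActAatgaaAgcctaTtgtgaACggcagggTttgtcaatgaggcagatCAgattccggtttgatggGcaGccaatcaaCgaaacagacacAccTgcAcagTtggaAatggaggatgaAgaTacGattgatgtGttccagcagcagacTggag
Sumo3: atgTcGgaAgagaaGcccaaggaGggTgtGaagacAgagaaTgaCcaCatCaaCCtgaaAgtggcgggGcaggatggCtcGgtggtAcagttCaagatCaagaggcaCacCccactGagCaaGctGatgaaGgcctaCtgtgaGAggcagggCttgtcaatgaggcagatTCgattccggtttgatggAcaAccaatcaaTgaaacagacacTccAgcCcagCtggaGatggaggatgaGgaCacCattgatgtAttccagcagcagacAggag
Of 274 aligned bases 227 were identical (82.8%), 47 differed, and 3 bases of Sumo2 had no partner in Sumo3. The longest run of identical bases was 17, both in this stretch and over the whole of these transcripts, so a read of 50 bases from either would carry differences. Other genes were closer to Sumo2: 29.1% of its 50-base windows were also found in exons of 14 other genes, of which 11 were annotated pseudogenes. The share was 13.7% for Senp3, 9.19% for Sumo3 (with 1 readthrough gene on the same strand that also overlaps its exons) and 0.433% for Pias2. No window of Sae1, Uba2, Pias1 or Pias4 was shared. The sources used here do not say how reads with several matches were counted, so the levels of Sumo2 and Senp3 are less certain than those of the last 4.

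GFP libraries held 9257889 to 10747794 counts over 11131 to 11850 genes, and Trim27 libraries held 10551137 to 16366571 counts over 12962 to 13283 genes. Levels are given as CPM, counts relative to the library size after scaling by edgeR's trimmed-mean factor (TMM). Trim27 itself, the check of the labels, rose from 180.5 ± 8.52 to 292.7 ± 18.4 CPM (here and below SD, n = 4 libraries per group). Its log2 fold change was 0.70 (SE 0.05), but 0.14 once each library's trend with transcript length was removed; transcripts of the virus and of the cells' own gene cannot be told apart. Most genes differed between the groups: by edgeR's quasi-likelihood test with a Benjamini-Hochberg adjusted p under 0.05, 85.5% of tested genes passed, 47.5% as rises and 38% as falls, and in 80.7% the libraries of the groups did not overlap. The balance depended on scaling: with library size alone 6277 genes rose and 3106 fell, while removal of the length trend gave 4224 rises and 4691 falls. Below 2 log2 CPM 58.5% of genes rose, whereas at 8 log2 CPM or more 67.4% fell. Marker genes moved as well: the summed level of 10 myeloid progenitor markers (10 tested, 1 rose, 8 fell) was 1641 to 1749 CPM in the GFP and 1180 to 1343 CPM in the Trim27 libraries. The sum of 7 erythroid markers in the table (3 rose, 4 fell) went from between 1626 and 1694 to between 1103 and 1310 CPM, that of 7 megakaryocyte markers (2 rose, 4 fell) from between 1059 and 1142 to between 827.3 and 863.2 CPM, and that of 8 B cell markers (7 tested, 0 rose, 5 fell) from between 64.8 and 154 to between 39.4 and 53.8 CPM. Markers of T and NK cells (1 of 6 tested, which fell, with Ncr1 at 0) summed to 28.5 to 30.3 CPM against 2.21 to 3.23 CPM. Nearly all of that sum was Lck, the 1 tested, with means of 28.9 and 2.16 CPM. Cd3e, Cd3g, Cd8a and Klrb1c had few or no counts in both groups. Markers of hepatocytes (2 of 7 tested, both rose, with Alb, Ttr, Apob, Hnf4a and Fgb at 0) summed to 1.20 to 1.70 against 14.3 to 16.4 CPM. Those of endothelial and stromal cells (4 of 8 tested, 1 rose, 3 fell, with Cdh5, Kdr and Col3a1 at 0) summed to 76.1 to 85.1 against 34.1 to 35.3 CPM. Most of that sum was Pdgfrb, with means of 45.9 and 5.58 CPM, and Pecam1, with means of 32.7 and 26.6 CPM. Col1a2, the 1 that rose, went from 0 to a mean of 1.96 CPM. The part of these marker changes in the results below was not tested. In such bulk samples a change in the make-up of the sorted cells and a change of RNA per cell cannot be told apart.

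The comparison asks how the RNA of the SUMO machinery differs between progenitors given Trim27 and those given the control virus. In the Trim27 group 5 of the 8 genes rose (Sumo2, Sae1, Uba2, Pias2 and Senp3) and 3 fell (Sumo3, Pias1 and Pias4). The smallest change was that of Sae1, 1.11-fold higher, and the largest that of Pias2, which was nearly undetected in the GFP libraries. Uba2 rose 2.39-fold, and Pias4 and Pias1 were 2.35-fold and 1.96-fold lower. The libraries of the groups did not overlap for any of the 8. Read against the shares of all tested genes above, 8 of 8 past the threshold is close to the background, and the count says nothing particular about these genes. With library size alone 5 rose, 2 fell and 1 was not past, while removal of the length trend gave 4 rises and 4 falls. Their median log2 fold change was 0.20, against 0.14 over all tested genes, and their summed level was 620.6 to 648 CPM in the GFP and 755.4 to 817.4 CPM in the Trim27 libraries.

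**Figure D1:**
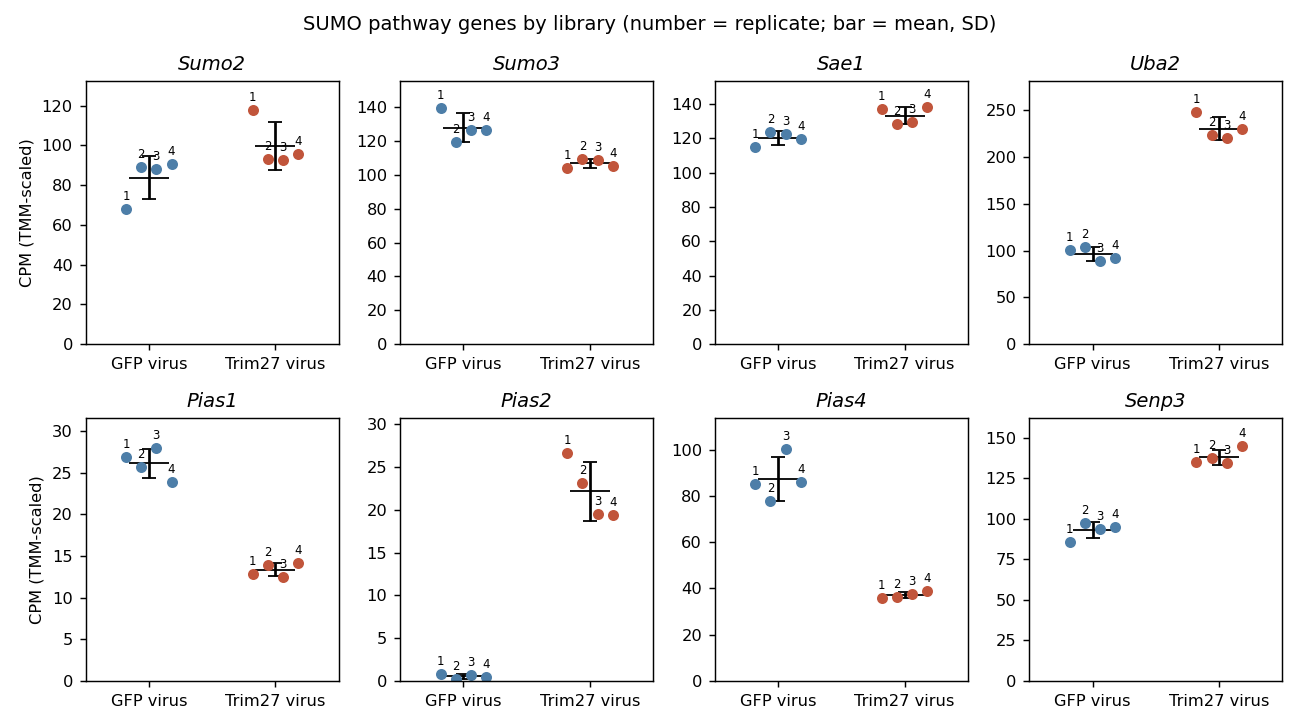
Level of each of the 8 genes in CPM (y axis, from 0) in the 4 GFP and 4 Trim27 libraries (x axis); points are libraries numbered by replicate, and the bar gives mean and SD. The groups lie apart for every gene, widely for Uba2, Pias1, Pias2, Pias4 and Senp3 and narrowly for Sumo2, Sumo3 and Sae1.

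The modifiers moved little and in opposite directions. Sumo2 was at 67.9, 89.0, 88.1 and 90.5 CPM in GFP replicates 1 to 4 and at 117.9, 93.4, 92.7 and 95.6 CPM in Trim27 replicates 1 to 4. Replicate 1 was the lowest library of the GFP group and the highest of the Trim27 group, and the other 6 libraries lay within a few CPM of each other. The mean went from 83.9 ± 10.7 to 99.9 ± 12.1 CPM. The log2 fold change was 0.25 (SE 0.09) with an adjusted p of 0.0111 by edgeR's quasi-likelihood test. Without Trim27 replicate 1 the value was 0.13 and the adjusted p 0.11 by the same test, so the call rests on that library. Without GFP replicate 1 the value was 0.16 and the adjusted p 0.0465, so the size of the change depended on both replicate 1 libraries. Reads given to 11 annotated Sumo2 pseudogenes were few (187 counts in the GFP and 353 in the Trim27 libraries, against 3047 and 6317 for Sumo2), and with them added the level was 89.0 ± 11.8 CPM (71.4 to 95.5) against 105.5 ± 13.4 CPM (97.7 to 125.4), still without overlap. Samd8, which shares 23 of the windows and is not a pseudogene, had 2 counts in the GFP and 356 in the Trim27 libraries, and was not part of that sum.

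Sumo3 was at 139.5, 119.5, 126.3 and 126.4 CPM in the GFP libraries and at 104.1, 109.1, 108.6 and 105.2 CPM in the Trim27 libraries. All GFP libraries lay above all Trim27 libraries, and the Trim27 libraries were close together. The mean fell from 127.9 ± 8.37 to 106.8 ± 2.47 CPM, a log2 fold change of -0.26 (SE 0.06, adjusted p = 1.44e-04 by edgeR's quasi-likelihood test). The direction depended on scaling: with library size alone, which moved the median of all tested genes from 0.14 to 0.44, Sumo3 was at 0.04 (adjusted p = 0.454), and in a fit of abundant genes only (6 log2 CPM or more) it was at -0.04 (adjusted p = 0.491).

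A ratio of counts taken within a library needs no scaling for library size, but a trend with transcript length can still shift it. With that trend removed the fitted log2 fold changes were 0.48 for Sumo2 and -0.66 for Sumo3. The ratios below were not adjusted for it. The log2 ratio of Sumo2 to Sumo3 counts was -1.04, -0.43, -0.52 and -0.48 in the GFP libraries and 0.18, -0.22, -0.23 and -0.14 in the Trim27 libraries. Every Trim27 library was above every GFP library, by a mean of 0.51 (two-sided exact permutation p = 0.0286, 0.0343 after Benjamini-Hochberg adjustment over 6 ratios). For 4 against 4 libraries 0.0286 is the smallest p this test can give. Without Trim27 replicate 1 the difference was 0.42 and no longer passed (exact permutation, adjusted p = 0.0571), although the groups still did not overlap.

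The E1 subunits work as a heterodimer, but their RNAs did not move by the same amount. Uba2, the catalytic subunit, was at 100.1, 104.2, 88.5 and 91.7 CPM in the GFP libraries and at 247.5, 222.9, 220.5 and 229.4 CPM in the Trim27 libraries. Even the lowest Trim27 library was far above the highest GFP library. The mean rose from 96.1 ± 7.26 to 230.1 ± 12.2 CPM, a log2 fold change of 1.26 (SE 0.06, adjusted p = 6.75e-18 by edgeR's quasi-likelihood test). Among the 1978 tested genes of like abundance (6 to 8 log2 CPM) 3.79% rose as far or further, the smallest such share of the 8 genes. Uba2 was past the threshold in the same direction in all 19 alternative settings run, with values from 0.93 to 1.56.

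Sae1, which completes the E1 and has no catalytic cysteine of its own, was at 114.7, 123.7, 122.4 and 119.7 CPM in the GFP libraries and at 137.2, 128.4, 129.6 and 138.0 CPM in the Trim27 libraries. The groups were separated by less than their own ranges. Its mean rose from 120.1 ± 4.01 to 133.3 ± 5.02 CPM, a log2 fold change of 0.15 (SE 0.05, adjusted p = 0.0132 by edgeR's quasi-likelihood test). This call was fragile. It turned to a fall of -0.17 (adjusted p = 0.0063) with the length trend removed, and it was lost without GFP replicate 1 (0.12, adjusted p = 0.0539) or without Trim27 replicate 1 (0.10, 0.0604), 3 (0.13, 0.0556) or 4 (0.10, 0.12).

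The balance of the subunits was read from their ratio. The log2 ratio of Sae1 to Uba2 counts was 0.20, 0.25, 0.47 and 0.38 in the GFP libraries and -0.85, -0.80, -0.77 and -0.73 in the Trim27 libraries. There were more Sae1 than Uba2 counts in each GFP library and fewer in each Trim27 library, a mean difference of -1.11 (two-sided exact permutation p = 0.0286, adjusted 0.0343). Without Trim27 replicate 1 it was -1.09 and did not pass (exact permutation, adjusted p = 0.0571), although the groups still did not overlap. Before adjustment the exact permutation test can then give no p under 0.0286. The lost call therefore does not show that the difference rests on that library. Rwdd3, whose product RSUME enhances SUMO conjugation, had no count in the GFP libraries and a mean of 2.03 ± 0.646 CPM in the Trim27 libraries. That is at least 25.5-fold higher against a floor of 3 counts over the GFP group, a bound that covers counting error only.

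**Figure D2:**
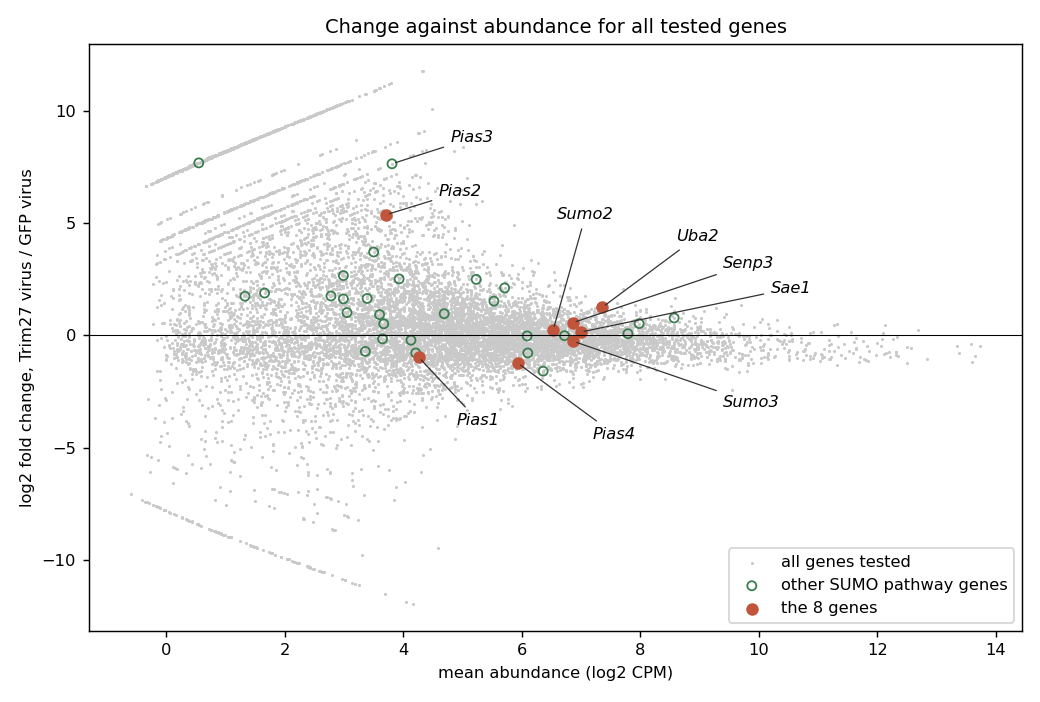
Log2 fold change of the Trim27 over the GFP group (y axis) against mean log2 CPM (x axis) for all 11040 tested genes (grey), the 8 genes (filled red) and 28 other SUMO pathway genes (open green). At the abundance of Uba2 the grey cloud is narrow, whereas at that of Pias2 and Pias3 it reaches far above 0; the straight lines of points are genes with few or no counts in one group.

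Among the PIAS ligases Pias1 and Pias4 fell and Pias2 rose. Pias4 (PIASy), the most abundant of them, was at 85.0, 77.6, 100.2 and 85.9 CPM in the GFP libraries and at 36.0, 36.1, 37.6 and 38.8 CPM in the Trim27 libraries. The 4 Trim27 libraries were nearly equal and far below every GFP library. The mean fell from 87.2 ± 9.46 to 37.1 ± 1.33 CPM, with a log2 fold change of -1.23 (SE 0.08, adjusted p = 3.97e-15 by edgeR's quasi-likelihood test). Of 3378 genes of like abundance (4 to 6 log2 CPM) 10.1% fell as far or further.

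Pias1 was at 27.0, 25.8, 28.0 and 24.0 CPM in the GFP libraries and at 12.9, 13.9, 12.5 and 14.2 CPM in the Trim27 libraries. The gap between the groups was wider than the range within either. It fell from 26.2 ± 1.73 to 13.4 ± 0.790 CPM, with a log2 fold change of -0.97 (SE 0.11, adjusted p = 3.03e-09). Of the genes of its abundance 15.5% fell as far or further. With the length trend removed the value was -1.74, the largest shift that this setting made among the 8 genes. Pias1 is also the longest of them, at 6386 bases of exon against 1166 for Sumo2, the shortest.

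Pias2 (PIASx) was at 0.800, 0.213, 0.717 and 0.411 CPM in the GFP libraries and at 26.7, 23.1, 19.5 and 19.4 CPM in the Trim27 libraries. Behind these levels were 7, 2, 6 and 4 counts in the GFP and 443, 384, 353 and 229 counts in the Trim27 libraries. Detection in the GFP group was thus near its limit, and the groups were far apart. The fitted log2 fold change was 5.38 (SE 0.25, adjusted p = 4.17e-18 by edgeR's quasi-likelihood test), and the ratio of summed counts per library size was 42.6 with a 95% interval of 27.2 to 70.9 that covers counting error only. Among 2903 genes of like abundance (2 to 4 log2 CPM) 12.7% rose as far or further, so rises of this kind were common there. Small counts were mostly even (68.4% to 72% of counts from 1 to 10 in the GFP libraries), and where both reads of a pair are counted such an interval is too narrow.

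Pias3, the remaining gene of the family and known for binding STAT3, had the same form. It had 4 counts in GFP replicate 1 and none in the other 3 GFP libraries, against 444, 387, 429 and 274 counts in the Trim27 libraries. Its level in the Trim27 group was 24.2 ± 1.66 CPM, with a fitted log2 fold change of 7.65 (SE 0.33, adjusted p = 1.06e-18) and a count ratio of 220.2 (95% interval 85.8 to 809.1). That ratio rests on GFP replicate 1, without which the GFP group holds no count of Pias3 (fitted value 11.29). An overlap of 4 exon bases with Nudt17 on the opposite strand is the only one the annotation gives for it. Pias2 and Pias3 were thus close to the detection limit with the control virus and readily counted with Trim27, while Pias1 and Pias4 were lower with Trim27.

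Per kilobase of exon, the scale on which genes can be compared, the make-up of the family differed between the groups in every library. Pias4 held 88.7% ± 0.945 of the family's counts with the control virus and 47.1% ± 2.87 with Trim27. Pias1 held 10.8% ± 0.855 and 6.83% ± 0.496. Pias2 went from 0.391% ± 0.186 to 20.5% ± 2.53. Pias3 went from 0.0985% ± 0.197 to 25.6% ± 0.953. One gene thus made up most of the PIAS counts in the GFP libraries, and 3 genes shared them in the Trim27 libraries. The summed level of the 4 genes differed far less, at 114.0 ± 10.8 CPM with the control virus and 96.9 ± 3.80 CPM with Trim27.

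**Figure D3:**
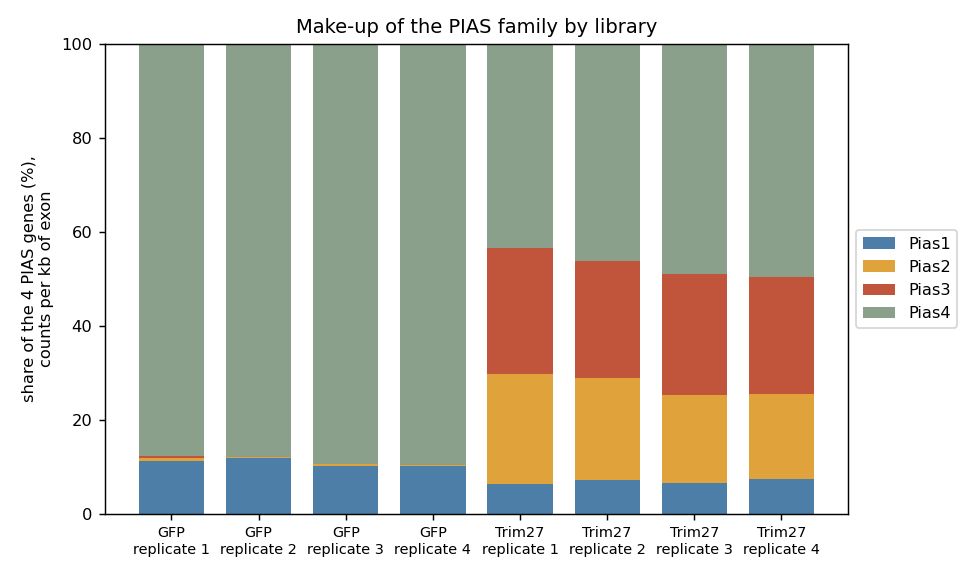
Share of each PIAS gene in the counts per kilobase of exon of the 4 PIAS genes (y axis, percent) in each of the 8 libraries (x axis). Pias4 takes 87.8% to 89.6% of each GFP bar and 43.4% to 49.6% of each Trim27 bar, where Pias2 and Pias3 are visible in every bar.

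Within-library ratios of the PIAS genes were compared as well. The log2 ratio of Pias1 to Pias2 counts was 5.08, 6.92, 5.29 and 5.86 in the GFP libraries and -1.05, -0.73, -0.64 and -0.46 in the Trim27 libraries, a difference of means of -6.50. The log2 ratio of Pias2 to Pias4 was -6.73, -8.51, -7.13 and -7.71 against -0.43, -0.64, -0.95 and -1.0, a difference of 6.76. In both, the GFP values rest on 2 to 7 counts of Pias2 per library. For Pias1 to Pias4, which both fell, the log2 ratio was -1.66, -1.59, -1.84 and -1.84 against -1.48, -1.38, -1.58 and -1.45, a difference of 0.26. The groups did not overlap in any of these 3 ratios, although in the last GFP replicate 2 and Trim27 replicate 3 almost touched, and each had a two-sided exact permutation p of 0.0286 (adjusted 0.0343). The direction for Pias1 to Pias4 depended on the length trend. With the trend removed Pias1 fell further than Pias4 in the fit (-1.74 against -1.56). Without Trim27 replicate 1 none of the 3 passed (-6.39, 6.66 and 0.26, exact permutation, adjusted p = 0.0571 each), and the ratio of Pias1 to Pias4 passed in only 2 of the 8 fits that left out 1 library. For the 2 ratios with Pias2 the groups stayed far apart without that replicate. Their lost calls therefore do not show that these differences rest on it.

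Senp3, a nucleolar protease that acts mainly on SUMO2 and SUMO3, was at 85.7, 97.3, 93.7 and 94.8 CPM in the GFP libraries and at 135.1, 137.5, 134.4 and 144.6 CPM in the Trim27 libraries. No library of either group came near the other group. The mean rose from 92.9 ± 5.01 to 137.9 ± 4.67 CPM (1.48-fold), with a log2 fold change of 0.57 (SE 0.06, adjusted p = 2.55e-10 by edgeR's quasi-likelihood test). Of the 1978 genes of like abundance 16.3% rose as far or further, and with the length trend removed the value was 0.27. The log2 ratio of Senp3 to Sumo2, protease to substrate, was 0.34, 0.13, 0.09 and 0.07 in the GFP libraries against 0.20, 0.56, 0.54 and 0.60 in the Trim27 libraries. These groups overlapped, and the difference of 0.32 did not pass (two-sided exact permutation p = 0.0571, adjusted 0.0571). Among the 6 SENP genes that act on SUMO, Senp3 held 83.3% ± 0.873 of the counts per kilobase in the GFP and 78.0% ± 1.72 in the Trim27 group.

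Genes of 6 nucleolar partners of SENP3 had a median log2 fold change of -0.41, against 0.14 over all tested genes. Of them 1 rose, 3 fell and 2 were not past the threshold, where 47.5% of all tested genes rose and 38% fell, and their difference from Senp3 was not tested. Npm1, which encodes nucleophosmin, a substrate of SENP3, rose from 3758 ± 262.2 to 5176 ± 384.6 CPM (log2 fold change 0.46, SE 0.05). Nol9, Wdr18 and Las1l, whose products act in the maturation of ribosomal RNA, fell by 1.56, 0.74 and 0.52 on the log2 scale. Pelp1 and Tex10, the scaffold genes of that complex, were at 0.01 and -0.29.

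On the scale of CPM per kilobase of exon the order of the 8 genes changed between the groups. In the GFP group Sumo2 was highest at 71.9 ± 9.18, followed by Sae1 at 47.2 ± 1.58. Sumo3 (40.7 ± 2.67), Senp3 (38.6 ± 2.08), Uba2 (37.3 ± 2.82) and Pias4 (33.9 ± 3.68) came next, and neighbours in this run did not differ beyond their spread. Pias1 (4.10 ± 0.271) and Pias2 (0.152 ± 0.0775) were far lower. In the Trim27 group Uba2 (89.2 ± 4.74) and Sumo2 (85.7 ± 10.4) were highest and not distinct from each other. Senp3 (57.2 ± 1.94), Sae1 (52.4 ± 1.97), Sumo3 (34.0 ± 0.786), Pias4 (14.4 ± 0.516), Pias2 (6.31 ± 0.981) and Pias1 (2.09 ± 0.124) followed. Uba2 thus stood level with Senp3 and Sumo3 in one group and with Sumo2 in the other, and Pias1 and Pias2 changed places.

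The spread within a group was small for most of the 8. The coefficient of variation over the 4 libraries was 3.33% for Sae1 in the GFP group and 2.31% for Sumo3 in the Trim27 group, the lowest of each. Sumo2 had 12.8% and 12.1%, and Pias2 had 50.9% at its few GFP counts and 15.5% in the Trim27 group.

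A list of 29 other SUMO pathway genes, 28 of them tested, served as a wider view. In it 19 rose, 4 fell and 5 were not past the threshold, where 47.5% of all tested genes rose and 38% fell. The median was 1.0 against 0.14 over all tested genes. Their summed level was 1240 to 1304 CPM in the GFP and 1678 to 1745 CPM in the Trim27 libraries. Low-abundance genes rose more often throughout the data, at a median of 0.65 for the 2903 genes from 2 to 4 log2 CPM against -0.17 for the 1978 genes from 6 to 8. The share that rose went from 58.5% below 2 log2 CPM to 21.3% at 8 or more. The part of abundance in the count of this list was not tested, and nothing particular to the pathway is read from that count. Of the list 22 rose and 4 fell when library size alone was used, and 16 rose and 10 fell after removal of the length trend.

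Among the other ligases, with Pias3 counted as one that rose, 7 of 10 tested rose and 2 fell. Of all tested genes 47.5% rose and 38% fell. Rnf212 was at 0 in every library. Mul1, a ligase of the mitochondrial outer membrane, fell from 126.1 ± 3.43 to 41.8 ± 0.942 CPM (log2 fold change -1.59, SE 0.06). Nsmce2, the ligase of the SMC5/6 complex, rose from 22.9 ± 1.82 to 66.5 ± 3.16 CPM (1.53, SE 0.08). Zfp451, which builds SUMO2 and SUMO3 chains, rose from 4.10 ± 0.629 to 23.5 ± 1.93 CPM (2.52, SE 0.15). The ligase genes outside the PIAS family therefore also moved in both directions.

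Of 8 other protease genes, 5 rose, 1 fell and 2 were not past the threshold, beside the same background. Senp5, the closest relative of Senp3 and likewise nucleolar, rose from 1.37 ± 0.562 to 18.3 ± 2.16 CPM (log2 fold change 3.72, SE 0.21). Of its 6332 exon bases 131 overlap Ncbp2 on the opposite strand, and since the sources used here do not state a strand setting, reads within that overlap cannot be told apart. Senp2, found at the nuclear pore, rose from 16.7 ± 0.874 to 32.8 ± 2.77 CPM (0.97, SE 0.10). Senp7 and Desi2 rose by 1.63 and 1.65 on the log2 scale.

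Of 7 genes that read SUMO or are well-known substrates, 5 rose, 1 fell and 1 was not past the threshold. Of all tested genes 47.5% rose and 38% fell. By abundance 58.5% rose below 2 log2 CPM, 55% from 2 to 4, 47.4% from 4 to 6 and 33.9% from 6 to 8. The 7 genes were spread over these bands. Their count was not tested against them, and nothing particular is read from it. Pml, which organises SUMO-rich nuclear bodies, rose from 18.9 ± 2.96 to 81.8 ± 2.82 CPM (log2 fold change 2.12, SE 0.09). Setdb1, a histone methyltransferase recruited through SUMO, rose from 10.7 ± 1.03 to 60.5 ± 2.36 CPM (2.50, SE 0.10). Daxx, a partner of PML with SUMO-binding motifs, fell from 87.7 ± 5.66 to 51.1 ± 3.37 CPM (-0.78, SE 0.07). Both Pml and Setdb1 overlap small stretches of exons on the opposite strand. Rangap1, the classic SUMO substrate, rose by 0.53 on the log2 scale. Of the SUMO-targeted ubiquitin ligases Rnf111 rose from 1.88 ± 0.762 to 11.97 ± 2.13 CPM (2.67, SE 0.23), while Rnf4 was at 68.6 ± 3.05 and 67.6 ± 6.56 CPM with overlapping groups.

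**Figure D4:**
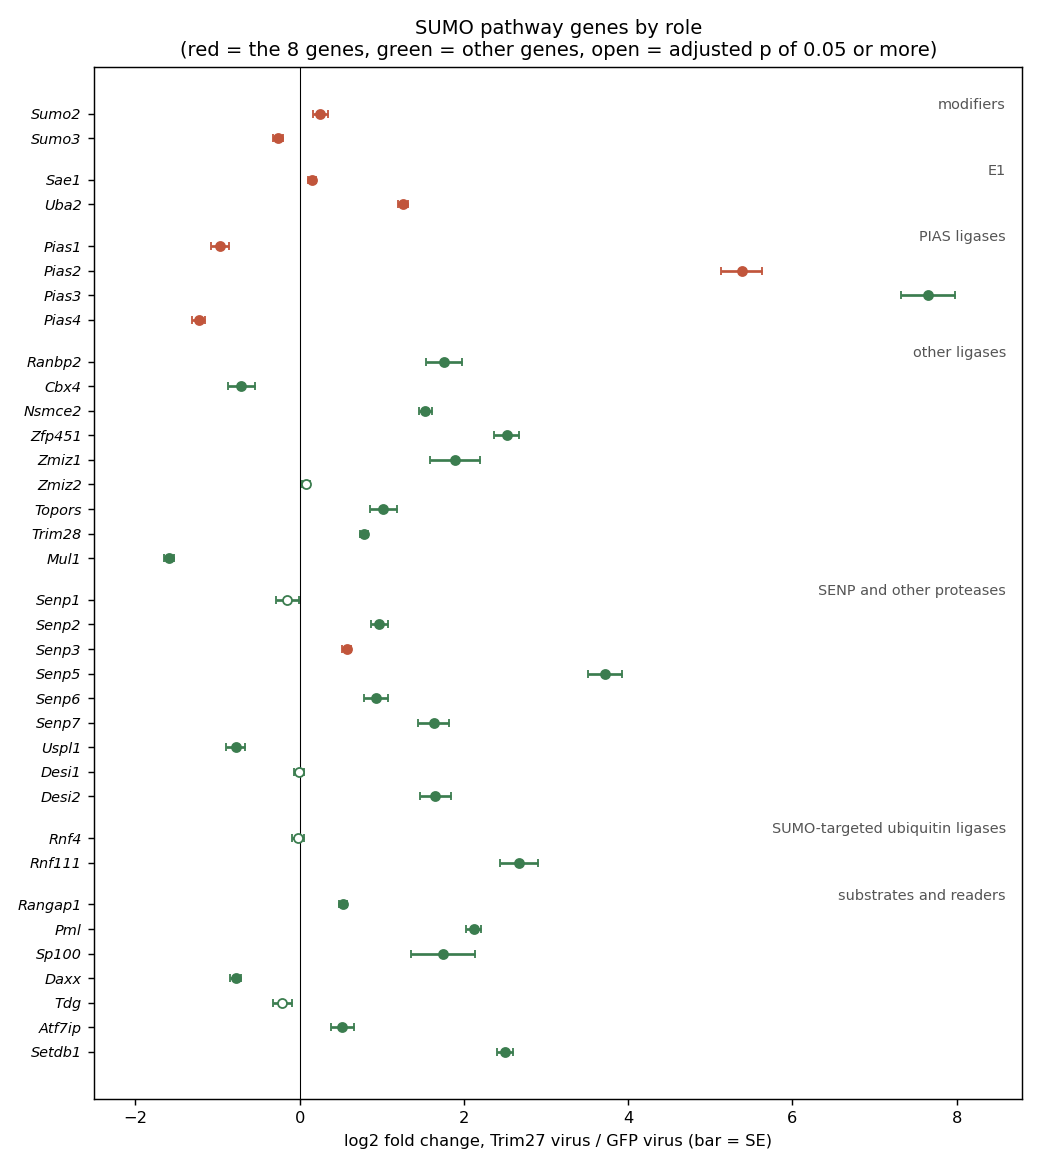
Log2 fold change of the Trim27 over the GFP group with its SE (x axis) for the 8 genes (red) and 27 other tested SUMO pathway genes (green) arranged by role (y axis); open points did not pass the threshold, and Rwdd3, with no GFP count, is left out. Points of each role lie on both sides of 0 except for the activating enzyme, with both genes above 0, and Pias2 and Pias3 stand farthest to the right.

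Genes of other ubiquitin-like systems were listed beside these. Of 15 genes for their modifiers and enzymes, 5 rose, 7 fell and 3 were not past the threshold, beside 47.5% rising and 38% falling among all tested genes, and their median was -0.00. Fau, which encodes a ubiquitin-like protein fused to a ribosomal protein, fell from 3149 ± 91.1 to 1542 ± 92.7 CPM (log2 fold change -1.03, SE 0.05). Uba1, the ubiquitin E1 and the counterpart of Uba2, rose from 162.4 ± 5.23 to 344.2 ± 11.2 CPM (log2 fold change 1.08, SE 0.05). Ube2m, an E2 for NEDD8, fell from 125.7 ± 13.1 to 40.2 ± 3.64 CPM (-1.64, SE 0.08), whereas Ube2f, the other NEDD8 E2, rose from 29.9 ± 3.26 to 95.5 ± 1.79 CPM (1.67, SE 0.08). A rise of an E1 gene of the size seen for Uba2 was thus also found outside the SUMO pathway, and the difference between these values was not tested.

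For each of the 8 genes the closest other genes were found by the root mean square difference of centred log2 CPM over the 8 libraries, among 2643 genes of at least 6 log2 CPM or, for the PIAS genes, 7600 of at least 3. Uba2 was nearest to Fubp1 (0.04) and Tmem50a (0.05), and Pias4 to 1600002H07Rik and Ccne1 (0.05 each). Pias1 was nearest to Prmt10 and Rpl34-ps1 (0.06 each) and Senp3 to Hars and Ppp1r2 (0.04 each). Sumo3 was nearest to Snd1 (0.02) and Srrm2 (0.03), Sae1 to Atp1b3 and Gsto1 (0.03 each) and Sumo2 to Dnajc2 (0.07) and Nt5c3 (0.08). Pias2 had no equally close neighbour, with Med23 at 0.13 and Vav2 at 0.17. None of these nearest genes is a gene of the SUMO lists.

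**Figure D5:**
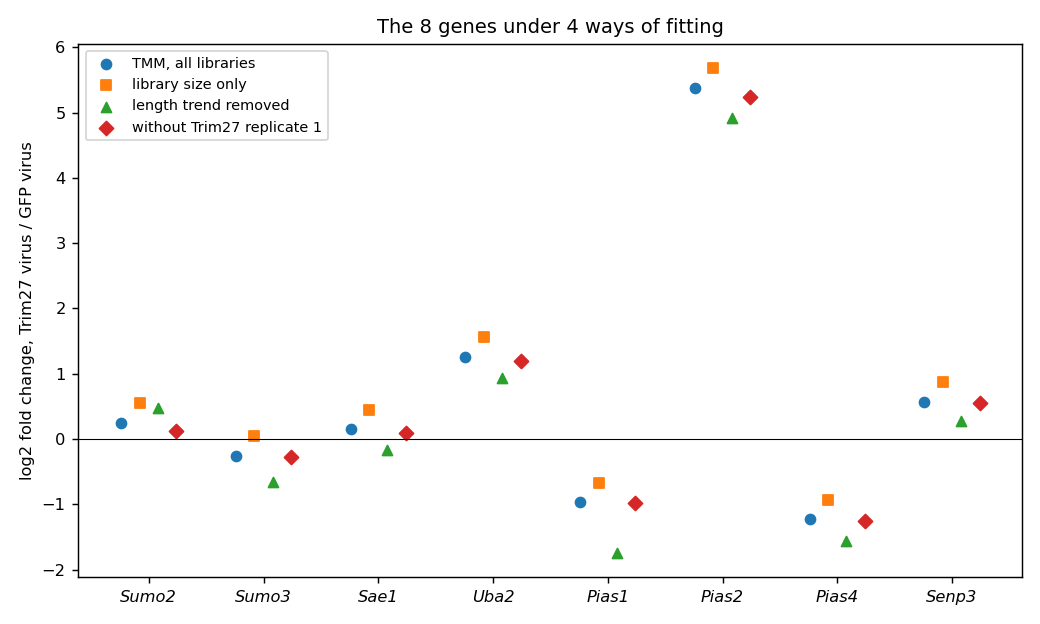
Log2 fold change of the Trim27 over the GFP group (y axis) for each of the 8 genes (x axis) under TMM scaling, library size only, removal of the length trend, and without Trim27 replicate 1. Uba2, Pias1, Pias2, Pias4, Senp3 and Sumo2 stay on one side of 0 in all 4, whereas Sumo3 crosses 0 with library size only and Sae1 with the length trend removed.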

How the data were processed

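RNA of 4 GFP and 4 Trim27 libraries of sorted myeloid progenitors was compared. The authors deposited 1 table of raw counts per gene symbol; per the submitters' processing notes, bcl2fastq, HISAT2, featureCounts and build NCBIM37 were used. The sources used here do not give versions, annotation, strand or multiple-match settings. Counts were fitted over the whole table with edgeR 4.0.16 in R 4.3.3: filterByExpr (minimum count 10, minimum total 15), TMM scaling, robust quasi-likelihood test, Benjamini-Hochberg adjustment over 11040 genes, threshold 0.05. SEs came from the log2 fold change and its F statistic. The fit was tested on simulated data. One line without a gene name held 0 counts. Ratios were tested by two-sided exact permutation, with 0.5 added to both counts as an alternative. Exon lengths, overlaps and shared windows came from GENCODE M21 (GRCm38), not the authors' build, so no gene coordinates are given. Other alternatives were DESeq2 1.42.0, limma 3.58.1 voom, other scalings, filters and leaving out libraries. The named genes were all 8, Trim27, Pias3, from each SUMO-related list up to 4 called genes of smallest p, and the 2 nearest patterns per gene. Rnf4, Pelp1, Tex10, Samd8, Rnf212 and the single marker genes were named after their values were seen. The members and lists were chosen with earlier results of these data known. Some genes of the pathway are not reported here.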

Additional observations from a re-analysis of the deposited data

Results flagged for a closer look

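Libraries that stood apart within their group of 4 were looked for by the gap of the highest or lowest library to its neighbour, as a share of the group's range, against Dixon's 95% critical value for 4 values. Chance exceeds that value in about 1 of 20 groups, and 32 groups were checked. Sumo2 exceeded it in both groups, with GFP replicate 1 low (0.896) and Trim27 replicate 1 high (0.887). The log2 ratio of Sumo2 to Sumo3 exceeded it in the GFP group (0.848, replicate 1 low), and that of Senp3 to Sumo2 in the Trim27 group (0.846, replicate 1 low). Pias3 exceeded it in the GFP group (1.0, replicate 1, the only library with counts) and in the Trim27 group (0.874, replicate 1 high).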

How the results depend on the processing

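Pias1, Pias2, Pias4 and Uba2 kept direction and call in every setting run: -1.74 to -0.67, 4.91 to 5.68, -1.56 to -0.93 and 0.93 to 1.56 on the log2 scale (the PIAS genes were not tested among genes of at least 6 log2 CPM). With library size only, Sumo3 was at 0.04, and 1 of the 8 genes and 2 of the wider list were not past the threshold; the calls over all genes were then 6277 rises and 3106 falls. With the length trend removed, Sae1 was at -0.17, calls over all genes were 4224 rises and 4691 falls, and 10 wider genes fell and 2 were not past. Among genes of at least 6 log2 CPM, where fewer genes are tested, 1123 rose and 1146 fell; of the 8 genes 0 fell and 1 (Sumo3, -0.04) was not past, and of the wider list 5 rose, 2 fell and 0 were not past. With at least 10 CPM in 4 libraries 3453 genes rose. Against a fold change of 1.5 (glmTreat), 2452 genes fell, 2 of the 8 rose and 4 were not past (Sumo2 0.25, Sumo3 -0.26, Sae1 0.15 and Senp3 0.57), and 8 wider genes were not past. Where no construction of the setting shows the cause, the cause was not tested.

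Leaving out each library gave 0.10 to 0.16 for Sae1 and 0.13 to 0.29 for Sumo2; of the 8 genes 3 to 5 rose and 0 to 2 were not past. The log2 ratio differences ranged from -6.74 to -6.13 for Pias1/Pias2, 0.22 to 0.31 for Pias1/Pias4, 6.43 to 7.03 for Pias2/Pias4, -1.15 to -1.06 for Sae1/Uba2, 0.27 to 0.41 for Senp3/Sumo2 and 0.37 to 0.58 for Sumo2/Sumo3. Without Trim27 replicate 1 none of these 6 passed the threshold, and Pias1/Pias4 passed in 2 of 8 such fits (elsewhere adjusted p 0.0571 to 0.0686, exact permutation). The groups did not overlap without that replicate in any of the 6, including Senp3/Sumo2, which overlapped only with it. For Pias1/Pias4 they almost touched, at -1.59 in GFP replicate 2 and -1.58 in Trim27 replicate 3. Before adjustment the exact permutation test can give no p under 0.0286 there.

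Same-numbered libraries did not deviate together (r -0.304 to 0.072 over 5643 genes), and not every library correlated best with its own number. These values gave no sign of a pairing, but they cannot show whether same-numbered libraries shared an embryo or culture. With the replicate block 5133 genes rose and 4027 fell, and no call among the 8 genes changed. As paired ratios, Pias1/Pias2 (-6.50), Pias1/Pias4 (0.26), Pias2/Pias4 (6.76), Sae1/Uba2 (-1.11) and Sumo2/Sumo3 (0.51) had an exact sign-flip adjusted p of 0.15; with 4 pairs no p under 0.125 is possible. Depth limits Pias2 and Pias3 in the GFP group, at 19 and 4 counts.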
